A study of Mus musculus with 9 samples.

Results

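Endocardial nuclei, those of the cell layer that lines the heart chambers, were described in single-nucleus RNA sequencing of mouse ventricles after birth. They were 816 of 21770 nuclei within the limits on depth and nuclear RNA, out of 33000 deposited barcodes. The groups were 3 libraries of KO mice at P10 (postnatal days 9 to 10), which carry ERRα KO and ERRγ KO alleles, 3 libraries of control P10 mice and 3 libraries of control P6 mice (postnatal day 6). Controls of both ages are ERRα Het and ERRγ WT, so they too carry an ERRα mutant allele, and all mice are of the C57BL6/J strain with sex not determined. The labels do not name the promoter or the cell type of the deletion, do not record which ventricles were fresh and which flash frozen, and do not say whether each library came from an animal of its own. The p-values therefore measure the spread between libraries, which may be technical.

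The endocardium is a specialised endothelium in contact with the blood of the chambers. It sends signals to the heart muscle, among them neuregulin 1 (encoded by Nrg1) and endothelin 1 (Edn1), and takes part in forming valves and, in the developing heart, trabeculae. ERRα (Esrra) and ERRγ (Esrrg) are nuclear receptors that turn on genes of mitochondrial energy metabolism, and they are best known in the heart for this role in cardiomyocytes.

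A nucleus was counted as endocardial if it had at least 3 UMIs (unique molecular identifiers, each tagging 1 captured RNA molecule) over 6 marker genes. The markers were Nrg1, the natriuretic peptide clearance receptor Npr3, the clotting factor carrier Vwf, the muscarinic receptor Chrm3, the transmembrane protein gene Tmem108 and the endothelial diaphragm gene Plvap. Their sum also had to reach the sum over 9 capillary genes (Flt1, Kdr, Btnl9, Meox2, Gpihbp1, Adgrl4, Egfl7, Cyyr1 and Ushbp1), with at most 3 UMIs over the fibroblast genes Col1a2, Col3a1, Pdgfra and Abca8a. At most 1 UMI was allowed over the cell cycle genes Mki67, Top2a, Ect2, Kif15, Knl1 and Esco2. Since these counts chose the members, the levels of these genes in them are given as descriptions only, and a marker is tested only in members chosen without it. For comparison, 1212 capillary nuclei were chosen by the mirrored rule, 4419 fibroblast nuclei by the 4 fibroblast genes, and 8277 cardiomyocyte nuclei by Ttn, Ryr2, Myh6, Tnnt2, Actn2 and Ctnna3. The fibroblast and cardiomyocyte nuclei also had at most 1 UMI over the endocardial markers and at most 1 over the capillary genes. The cardiomyocyte nuclei had at most 1 over the fibroblast genes as well.

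The members numbered 74, 251 and 121 in KO P10 libraries 1 to 3, 63, 116 and 62 in control P10 libraries and 25, 61 and 43 in control P6 libraries. Their UMIs summed to 72842, 241726 and 93930 in KO P10, to 62608, 120123 and 63986 in control P10 and to 27977, 73167 and 38805 in control P6. KO P10 library 2 thus held most of the KO nuclei, and control P6 library 1 had the smallest sum, so its values are the least precise. A member had a median of 684 to 964 UMIs, depending on the library. KO P10 library 2 shared 465 barcodes with KO P10 library 1, and these were left out, 5 of which would have met the rule. Of its 251 members, 27 (10.8%) had doublet scores in the highest 5% of their library, within the range of 1.35% to 14.0% over the 9 libraries. Each control P6 library had sex-linked RNA of the Xist kind, as had library 1 of both P10 groups, whereas it was of the Y-linked kind in libraries 2 and 3 of both P10 groups.

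The endocardial share of nuclei was 3.89% (95% Wilson interval 3.11 to 4.85), 9.79% (8.70 to 11.001) and 4.81% (4.04 to 5.71) in KO P10 libraries 1 to 3. It was 4.09% (3.21 to 5.20), 3.35% (2.80 to 4.00) and 1.81% (1.42 to 2.32) in control P10 libraries, and 1.39%, 2.60% and 1.94% in control P6 libraries. The P10 groups overlapped, since KO P10 library 1 lay below control P10 library 1, and KO P10 library 2 stood far above every other library. The means were 6.16% ± 3.18 in KO P10 and 3.09% ± 1.16 in control P10 (SD, n = 3 each), a difference of 3.07 percentage points that did not pass an exact permutation test (two-sided p = 0.2, where 3 against 3 cannot go below 0.1). Without KO P10 library 2 the difference was 1.26 points, and with a limit of 5% Malat1, a nuclear RNA that marks intact nuclei, it was 0.353 points. With members chosen without Nrg1 the shares were 4.63% ± 2.01 in KO P10 and 2.81% ± 1.04 in control P10, a difference of 1.83 points (SD, n = 3 each; exact permutation p = 0.2, two-sided). Malat1 made up 4.14% to 6.24% of the members' UMIs in KO P10 and 6.51% to 7.90% in control P10. Between control P10 and control P6 (1.98% ± 0.604, SD, n = 3) the share differed by 1.11 points (exact permutation p = 0.3, two-sided). Intervals cover counting error only.

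Set against the nuclei of the same library that met the capillary rule, more nuclei met the endocardial rule in the KO. There were 1.95, 2.30 and 2.28 endocardial nuclei per capillary nucleus in KO P10 libraries 1 to 3, against 1.07, 0.547 and 0.231 in control P10 libraries and 0.110, 0.477 and 0.364 in control P6 libraries. Every KO P10 library lay above every control P10 library. The mean ratios were 2.18 ± 0.200 in KO P10 and 0.615 ± 0.422 in control P10 (SD, n = 3 each; exact permutation p = 0.1, two-sided, the smallest that 3 against 3 allows). The capillary share itself was 2.78% ± 1.27 in KO P10 and 5.93% ± 2.01 in control P10 (SD, n = 3 each; exact permutation p = 0.2). The rule counts UMIs of capillary genes and of Nrg1, whose level in members chosen without it differed between the genotypes (below). More nuclei of a type and more of the chosen RNA per nucleus therefore cannot be told apart in these shares and ratios. The ratio was not counted with members chosen without Nrg1.

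**Figure D1:**
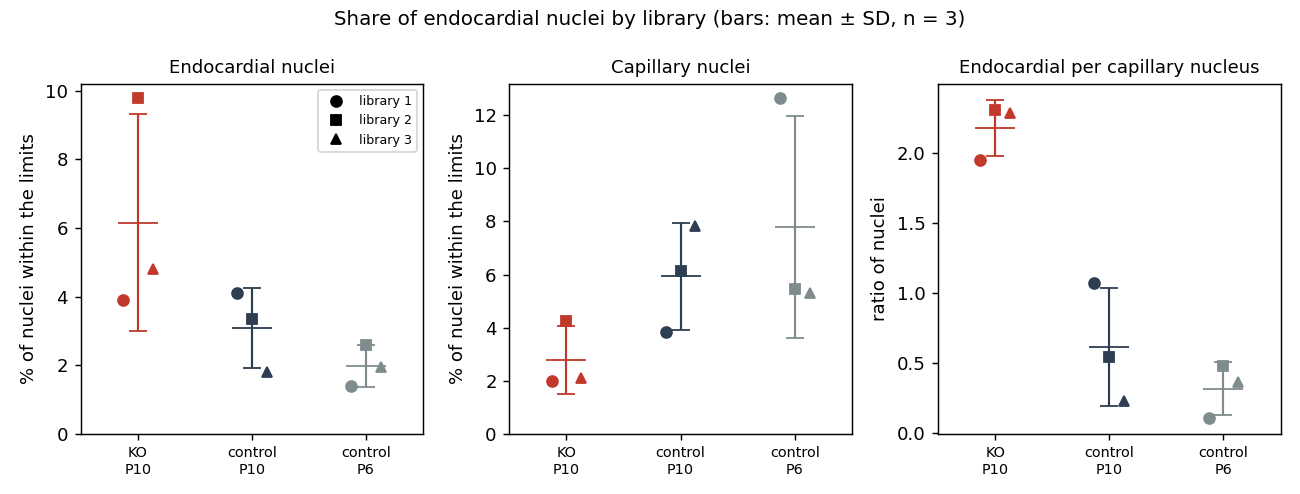
Endocardial share of nuclei (%), capillary share of nuclei (%) and endocardial nuclei per capillary nucleus in each library, with points for libraries and bars for group means. KO P10 library 2 stands at 9.79% in the endocardial share, and the 3 KO P10 libraries lie between 1.95 and 2.30 endocardial nuclei per capillary nucleus, above the control P10 libraries at 0.231 to 1.07.

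The marker genes were found unevenly, and their mix differed between the groups in the pooled nuclei. Each group share and median depth here pools the nuclei of the group's libraries, so it holds no spread between libraries. KO P10 library 2 held 251 of the 446 KO P10 members and 2595 of their 4088 marker UMIs. Nrg1 was found in 79.8% of members in KO P10, 39.0% in control P10 and 58.1% in control P6, but the rule itself raised these shares. Nuclei with at least 5 UMIs over the 4 fibroblast genes were chosen with no look at Nrg1. Of these, 13.9% in KO P10, 4.32% in control P10 and 7.26% in control P6 had an Nrg1 UMI. This comparison was added after seeing the data, and the share was thus highest in KO P10 there too. The median depth was 784, 843 and 879 UMIs per endocardial nucleus and 837, 900.0 and 900.0 UMIs per such fibroblast nucleus in KO P10, control P10 and control P6. Chrm3 was found in 40.1% of members in KO P10 and in 64.3% in control P10, and Tmem108 in 65.0% and 80.9%. Nrg1 contributed 48.6% of all marker UMIs in KO P10, against 16.3% in control P10. Of the 816 members, 52 had a single kind of marker, 210 had 2 kinds, 259 had 3, 197 had 4, 69 had 5 and 29 had all 6; 50 members had only Chrm3 or Tmem108. At the limit of the rule, the 140 nuclei with 3 marker UMIs had 634 CPM (UMIs of a gene, scaled to the UMIs of all genes in the summed nuclei) of Emcn, an endothelial sialomucin that the rule did not use, and 12013 CPM of the muscle gene Ttn. The 274 nuclei just outside, with 2 marker UMIs, had 310 CPM of Emcn and 14675 CPM of Ttn, whereas the 496 members with 6 or more had 1586 and 5809 CPM. Emcn was thus lower and Ttn higher towards the limit.

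To see whether the markers themselves differed between groups, members were chosen anew without the marker in question, and that marker was read in them; the marker list itself was drawn up with these data known. Nrg1 then had 2871, 9638 and 8428 CPM in KO P10 libraries 1 to 3, against 2065, 1498 and 1214 CPM in control P10 libraries 1 to 3. The groups did not overlap, and KO P10 library 1 was closest to the controls. The difference was log2 2.14 ± 0.48 (SE; edgeR quasi-likelihood test, adjusted p = 0.0287 over 1509 genes). Plvap had 226, 552 and 353 CPM in control P10 libraries 1 to 3, against 438, 1171 and 2070 CPM in control P6 libraries 1 to 3, a difference of log2 −1.66 ± 0.45 that passed narrowly with overlapping libraries (adjusted p = 0.0489 over 1760 genes). The other 10 such tests, of Npr3, Vwf, Chrm3 and Tmem108 in both comparisons, of Nrg1 with age and of Plvap with genotype, did not pass.

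Genes outside the rule were set beside the label over the 9 libraries, as plain CPM of each class without a test, since the classes were chosen by marker counts. Emcn averaged 1278 ± 399 CPM in endocardial nuclei, against 446 ± 97.1 CPM in capillary nuclei (SD, n = 9), and 40.1 and 29.8 CPM in fibroblast and cardiomyocyte nuclei. Cgnl1, a junction protein gene, averaged 820.0 ± 159.7 CPM in endocardial nuclei, against 183 ± 53.7 CPM in capillary nuclei. Bmp6, a ligand of the bone morphogenetic protein (BMP) family, averaged 406 ± 180.2 CPM in endocardial nuclei, against 81.7 ± 52.0 CPM in capillary nuclei. Each was higher in the endocardial than in the capillary nuclei of 9 of 9 libraries, and so was the summed list of 15 endocardial genes that the rule did not use (4259 against 1783 CPM). Pecam1, which all endothelial cells share, was at 751 against 610.4 CPM. It was at 48.3 and 39.6 CPM in fibroblast and cardiomyocyte nuclei, which were chosen with few endocardial and capillary UMIs. The summed pan-endothelial list stood at 6986 in endocardial and 7481 CPM in capillary nuclei, higher in the endocardial nuclei of 4 of 9 libraries. The arterial list of 12 genes was also higher, in 8 of 9 libraries (1034 against 575 CPM), and the venous list in 5 of 9 (442 against 470.3 CPM). These levels set an endothelial class apart from the capillary nuclei, but 2 genes of the developing endocardium did not mark it. The transcription factor Nfatc1 was at 35.0 against 32.8 CPM and the matrix linker Hapln1 at 4.43 against 6.19 CPM in endocardial against capillary nuclei.

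Several groups of genes that the rule did not use set the endocardial nuclei apart from the capillary nuclei. Endothelin 1 and its machinery were high: Edn1 was at 626 against 77.2 CPM in endocardial against capillary nuclei, the endothelin-converting enzyme Ece1 at 1159.9 against 232 CPM and the endothelin receptor Ednrb at 419 against 144 CPM. The summed list of 24 basement membrane and matrix genes was higher in 8 of 9 libraries, but its genes did not all go one way. Elastin (Eln) was at 3349.8 against 818 CPM, hemicentin 1 (Hmcn1) at 3487 against 676 CPM and the basement membrane collagens Col4a3 and Col4a4 at 212 against 28.2 CPM and 437 against 45.9 CPM. The main collagens of vessel basement membranes were lower in endocardial nuclei in each of the 9 libraries, Col4a1 at 507 against 1068 CPM and Col4a2 at 369 against 795 CPM. The mesenchymal cadherin Cdh11 was at 1253 against 149 CPM. Among imprinted fetal growth genes Igf2 was at 3854 against 783 CPM, H19 at 3376 against 797 CPM and the zinc finger gene Plagl1 at 450.0 against 75.0 CPM, and the summed list of 19 such genes was higher in 9 of 9 libraries. Genes with a mean of at least 100 CPM were also ranked by ratio to the highest other class, with 5 CPM added to each level. Those that led were the protease gene Bace2 (519 against 32.4 CPM), the Wnt inhibitor gene Sost (139 against 6.70 CPM), Tuft1 (301 against 19.9 CPM) and Tmem158 (201 against 15.7 CPM).

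Genes of capillary function were low in the endocardial nuclei. The fatty acid binding protein gene Fabp4 averaged 699 ± 347 CPM in endocardial nuclei, against 2733 ± 1837 CPM in capillary nuclei (SD, n = 9), and the fatty acid carrier Cd36 was at 523 against 1332 CPM. The lipid-sensing nuclear receptor Pparg was at 25.9 against 148 CPM, the neuropilin Nrp2 at 55.7 against 319 CPM, the transcription factor Dach1 at 111 against 556 CPM and the tight junction gene Cldn5 at 4.77 against 122 CPM. The summed lipid uptake list was lower in all 9 libraries (2929.6 against 6162 CPM). The summed respiratory chain list was likewise lower in all 9 (8796 against 12213 CPM).

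Markers of other cells were present in the summed members. The 12 fibroblast genes outside the rule summed to 4805 CPM in endocardial and 2187 CPM in capillary nuclei, higher in 9 of 9 libraries, with all 12 detected. The lymphatic list was low, at 249 against 605 CPM, with 8 of its 10 genes detected in the members and Pdpn and Ccl21a at 0 in both classes. The list of 18 cardiomyocyte genes, all detected, summed to 42042 to 49788 CPM in KO P10 libraries, 30092 to 39696 in control P10 and 15333 to 32241 in control P6. It was lower in endocardial than in capillary nuclei in 7 of 9 libraries. The 6 erythroid genes summed to 3734 to 15522 CPM in KO P10, 1735 to 2739 in control P10 and 1881 to 2109 in control P6. RNA of muscle and red cells in the members was thus higher in every KO P10 library than in every control P10 library, and its part in the results was not tested.

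**Figure D2:**
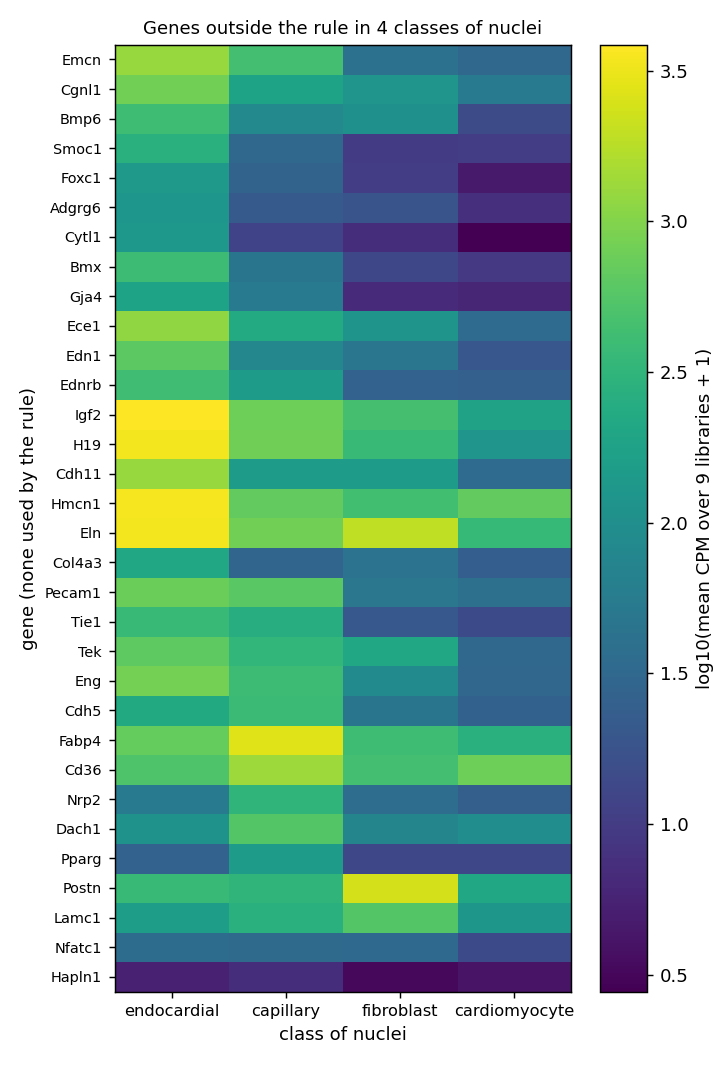
Mean level over the 9 libraries (log scale of CPM, colour) of genes that the rule did not use, in rows, in endocardial, capillary, fibroblast and cardiomyocyte nuclei, in columns. Emcn, Edn1, Hmcn1 and Igf2 are highest in the endocardial column, with Emcn at 1278 CPM there, and Fabp4 and Cd36 in the capillary column, with Fabp4 at 2733 CPM.

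The receptor genes targeted in the KO were checked first. Esrra had 0, 3 and 0 UMIs in the members of KO P10 libraries 1 to 3, against 2, 2 and 5 UMIs in control P10 libraries, too few for a comparison. Esrrg had 25, 37 and 35 UMIs in KO P10, against 33, 49 and 31 UMIs in control P10 and 9, 16 and 5 in control P6. On the scaled level this was 327, 162 and 382 CPM in KO P10, against 492, 390.1 and 479 CPM in control P10, a difference that did not pass (log2 −0.72 ± 0.37, SE; adjusted p = 0.480). Esrrg counts may include introns and exons outside the deleted sequence, so they need not measure functional RNA. In the cardiomyocyte nuclei Esrra had 3, 26 and 12 UMIs in KO P10 (9.74, 21.8 and 19.9 plain CPM) and 59, 128 and 73 in control P10 (87.8, 104.9 and 61.2 CPM). Esrrg had 339, 684 and 473 UMIs in KO P10 (1101, 574 and 783 CPM) and 1095, 1558 and 1767 in control P10 (1630, 1277 and 1481 CPM). Both were lower in each KO library, as the labels have it.

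Between KO P10 and control P10, 19 of 1887 tested genes outside the rule rose in endocardial nuclei (1.01%) and 11 fell (0.583%), or 30 in either direction (1.59%), by edgeR's quasi-likelihood test with Benjamini-Hochberg adjustment at 0.05. All 30 had libraries that did not overlap, which the call itself favours. The share without overlap among all 1887 genes was not counted, so this adds no support to the calls. Of the 1887 genes, 218 had an unadjusted p under 0.05. The count of calls was 6 without KO P10 library 2, 7 without control P10 library 3, 54 without KO P10 library 1 and 56 without control P6 library 3. It was 7 with a limit of 5% Malat1, 17 with members chosen without Nrg1 and 29 among members that had a UMI of Npr3, Vwf or Plvap. From here on, CPM values are scaled by the TMM factors of this fit, and each gene is given in the fit's own terms. Among the genes that rose were endothelin 1 and 7 other genes whose KO P10 mean was highest in endocardial nuclei, besides heart muscle stress genes and hemoglobins found in all classes. Among those that fell were the transcription factor gene Klf12, the membrane gene Palm, the secreted regulator genes Inhba and Igfbp5, potassium channel genes and the respiratory chain gene Cox7a1.

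The RNA of endothelin 1, a peptide that constricts vessels and acts on cardiomyocytes, was higher in the KO. Edn1 (chromosome 13, 42301476 to 42307990, mm10) had 484, 711 and 1091 CPM in KO P10 libraries 1 to 3, against 164, 223 and 77.3 CPM in control P10 libraries 1 to 3. The libraries did not overlap, and control P10 library 3 was lowest. The difference passed (log2 2.19 ± 0.49, SE; adjusted p = 0.0216) and kept its call in 17 of 23 alternatives, with log2 values of 1.85 to 2.63 and adjusted p of 0.000193 to 0.213. The call was lost without KO P10 library 2 or 3 and without control P10 library 3. It was also lost with a limit of 5% Malat1, with members chosen without Nrg1, and where the marker sum had to be 2 times the capillary sum. The 23 alternatives also leave out control P6 libraries, which share the fit but not this comparison. By class, in plain CPM, Edn1 averaged 748 ± 286 in endocardial nuclei of KO P10 and 162 ± 78.3 in those of control P10, (SD, n = 3 each). The KO mean was above the control P10 mean in the other classes too, with 115 ± 57.3 against 15.9 ± 4.05 in capillary, 74.0 ± 20.8 against 24.1 ± 15.5 in fibroblast and 23.9 ± 2.63 against 12.6 ± 2.35 in cardiomyocyte nuclei. Among the other paracrine and endothelin genes tested, neither Ece1 (log2 0.57 ± 0.41, SE, edgeR adjusted p = 0.691) nor Ednrb (log2 −0.85 ± 0.37, SE, edgeR adjusted p = 0.374) passed the threshold. Edn1 was the 1 of 8 tested members of that list that was called, beside 1.59% of all 1887 genes tested.

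The Edn1 promoter is shown because this gene moved with both genotype and age, and that of Cox7a1 because Cox7a1 belongs to the energy genes that ERRs are known to turn on. Both run from 250 bases before to 50 bases after the start of the gene in RefSeq (GRCm38.p6, the assembly of mm10), which for Cox7a1 lies inside the gene interval that the GENCODE annotation gives, and capitals mark the GATA motif AGATAA or its reverse complement. Edn1, chr13:42301226-42301525, plus strand, with the motif at bases 259 to 264 on the reverse strand, and Cox7a1, chr7:30183921-30184220, plus strand, with it at 28 to 33 on the reverse and 74 to 79 on the forward strand:
Edn1: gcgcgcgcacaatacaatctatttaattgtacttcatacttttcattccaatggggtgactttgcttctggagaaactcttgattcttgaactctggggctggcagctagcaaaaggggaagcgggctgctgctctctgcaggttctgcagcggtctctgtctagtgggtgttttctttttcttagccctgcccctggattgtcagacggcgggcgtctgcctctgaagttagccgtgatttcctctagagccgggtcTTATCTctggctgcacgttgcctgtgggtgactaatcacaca
Cox7a1: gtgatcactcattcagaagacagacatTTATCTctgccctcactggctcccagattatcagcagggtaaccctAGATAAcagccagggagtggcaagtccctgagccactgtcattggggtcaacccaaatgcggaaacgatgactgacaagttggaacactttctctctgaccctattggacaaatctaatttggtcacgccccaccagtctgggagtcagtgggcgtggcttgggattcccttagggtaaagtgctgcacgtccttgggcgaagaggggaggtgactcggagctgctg
Of the 30 called genes, 27 had a promoter in the table, 16 that rose and 11 that fell, and both strands of each were searched, with overlaps between motifs allowed. AGATAA stood in 2 of the 16 (Edn1 and Nppb) and in 1 of the 11 (Cox7a1), against 11.2% of all 32851 promoters and 7.12% of the 1474 tested genes that had one. The ERR motif AAGGTCA and the AP-1 motif TGANTCA stood in none of the 27, against 4.72% and 7.81% of all promoters. A match is a description of letters only.

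The other genes that rose and were highest in endocardial nuclei of KO P10 have varied roles. Tuft1 (chromosome 3, 94612757 to 94658872), which encodes tuftelin, had 340.1, 558 and 535 CPM in KO P10 libraries 1 to 3, against 104, 87.6 and 46.4 CPM in control P10 libraries 1 to 3 (log2 2.52 ± 0.49, SE; adjusted p = 0.0102). Txndc5 (chromosome 13, 38500079 to 38528824), a protein disulfide isomerase of the endoplasmic reticulum, had 144, 509 and 480.1 CPM in KO P10 libraries 1 to 3, against 44.7, 95.5 and 61.8 CPM in control P10 libraries 1 to 3 (log2 2.38 ± 0.54, SE; adjusted p = 0.0242). Both were at least as high in KO P10 libraries 2 and 3 as in library 1, and neither overlapped the controls. The call of Tuft1 was lost in 2 of 23 alternatives, without control P10 library 3 and with at least 700 UMIs. That of Txndc5 was lost in 7 of 23, among them without KO P10 library 2 or 3, without control P10 library 3 and with a limit of 5% Malat1. Aff2, an RNA-binding nuclear protein gene on the X chromosome, had 157, 562 and 142 CPM in KO P10 libraries 1 to 3, against 59.7, 55.7 and 61.8 CPM in control P10 libraries 1 to 3, so that KO P10 library 2 stood apart from the other KO libraries (log2 2.34 ± 0.53, SE; adjusted p = 0.0238). Its call was lost without control P10 library 2 or 3. Kif26b, a kinesin family gene, also rose (log2 2.71), as did Selenop, the selenium carrier (1.48), and Pam, which amidates secreted peptides (1.37). In plain CPM of KO P10, Tuft1 averaged 468 ± 96.2 in endocardial and 25.8 ± 22.5 in capillary nuclei, and Selenop 429 ± 134 and 87.6 ± 50.0 (SD, n = 3 each). Eef1a1, a translation elongation factor, rose as well (log2 1.54), but it has near-identical copies among which the deposited counting could split reads, so its value is uncertain. These 8 genes, Edn1 included, were the ones of the 19 with their highest mean in endocardial nuclei of KO P10. The ranking uses the group in which they were called high, and the share among all genes tested was not counted. In plain CPM of control P10, Aff2 averaged 61.6 in endocardial and 255 in cardiomyocyte nuclei, and Kif26b 40.8 and 74.1. Txndc5 averaged 70.1 in endocardial and 76.9 in fibroblast nuclei there, and Pam 803 and 969. Edn1, Tuft1, Selenop and Eef1a1 were highest in endocardial nuclei of control P10 too.

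The other 11 genes that rose had their highest mean in another class, in capillary nuclei for 5 and in fibroblast nuclei for 6. They include the natriuretic peptide genes Nppa and Nppb, which the stressed heart muscle makes. Nppa (chromosome 4, 148000722 to 148002079) had 1858, 16899 and 7965 CPM in KO P10 libraries 1 to 3, against 74.6, 486 and 92.7 CPM in control P10 libraries 1 to 3 (log2 5.19 ± 0.71, SE; adjusted p = 0.000356). In plain CPM, Nppa averaged 8548 in endocardial, 12590.0 in capillary, 13379 in fibroblast and 8130.0 in cardiomyocyte nuclei of KO P10, and between 219 and 249 in all 4 classes of control P10. The level was thus high in every class of the KO, as it was for skeletal actin Acta1 (log2 5.11), Nppb (2.95), the nicotinamide riboside kinase Nmrk2 (3.65), the matricellular gene Ctgf (3.08), the chaperone Cryab (1.96), the myosin light chain Myl9 (1.99) and Fhl1 (1.98). The hemoglobin genes Hba-a1 (2.28), Hba-a2 (1.87) and Hbb-bt (2.04) rose too. They were 3 of the 4 erythroid genes tested, whereas 1.01% of all 1887 genes tested rose. Hba-a1 and Hba-a2 are near-identical copies. Hemoglobin RNA made up 0.372%, 1.55% and 0.374% of the members' UMIs in KO P10 libraries 1 to 3 and 0.172% to 0.272% in control P10, and the part of RNA from other cells in these 11 calls was not tested.

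**Figure D3:**
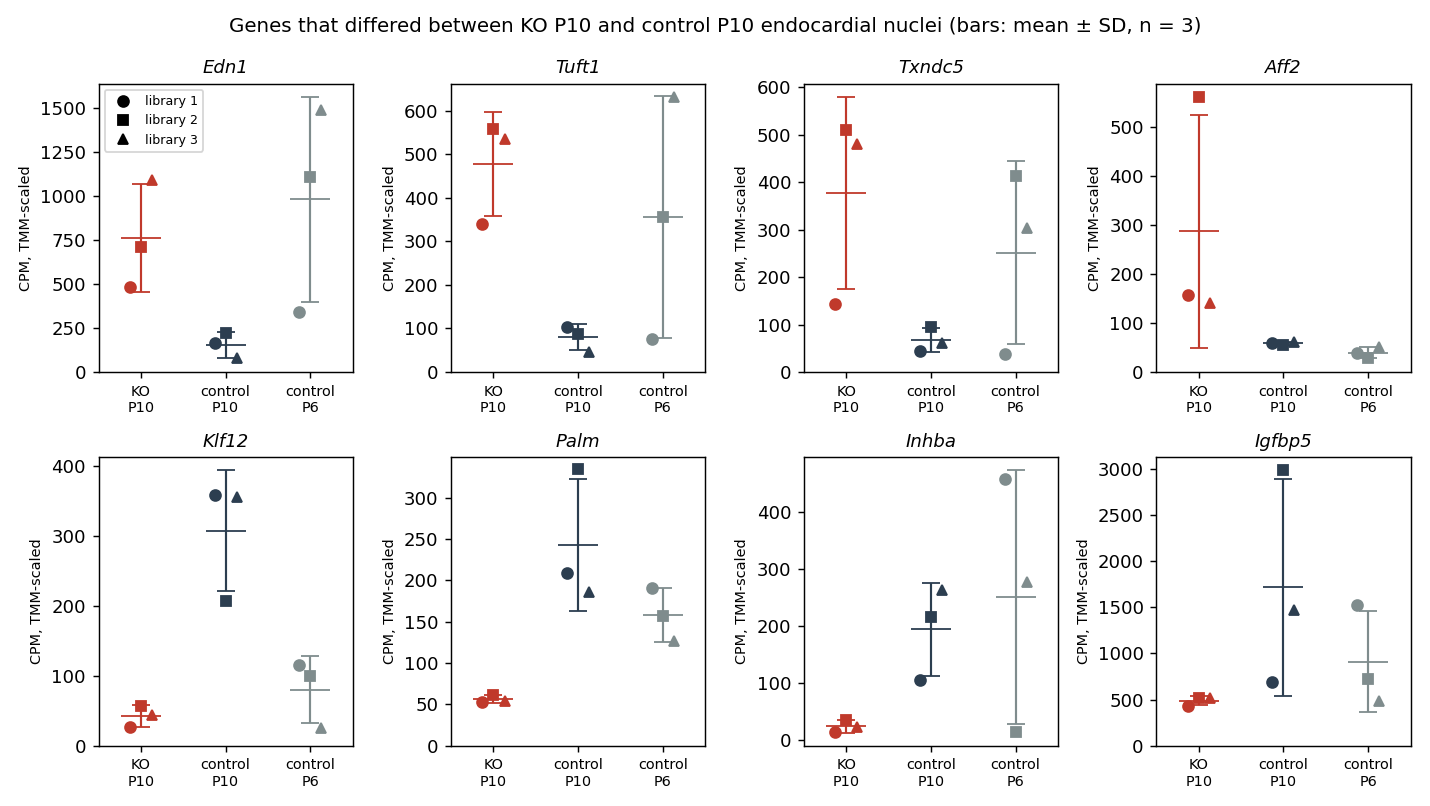
Level of 8 genes in endocardial nuclei (TMM-scaled CPM, linear axis) in each KO P10, control P10 and control P6 library, with points for libraries and bars for group means. Edn1, Tuft1, Txndc5 and Aff2 are higher in all 3 KO P10 libraries than in any control P10 library, and Klf12, Palm, Inhba and Igfbp5 are lower, Igfbp5 at 432 to 522 against 686 to 2993 CPM.

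Of the 11 genes that fell, 6 had their highest control P10 mean in endocardial nuclei. Here too the ranking uses the group in which they were called high, and the share among all genes tested was not counted. Klf12 (chromosome 14, 99870632 to 100284679), a repressor of the Krüppel-like family, had 26.2, 57.1 and 43.6 CPM in KO P10 libraries 1 to 3, against 358, 207 and 355 CPM in control P10 libraries 1 to 3. No library overlapped, and the KO level was the lower by log2 −2.69 ± 0.44 (SE, adjusted p = 0.00326). Palm (chromosome 10, 79793572 to 79820896), which encodes the membrane-bound paralemmin, had 52.3, 61.5 and 54.6 CPM in KO P10 libraries 1 to 3, against 209, 334 and 185 CPM in control P10 libraries 1 to 3 (log2 −2.15 ± 0.41, SE; adjusted p = 0.0102). The calls of Klf12, Nppa and Acta1 were kept in every alternative in which the gene was tested, 23, 23 and 17 in number. That of Palm was lost without KO P10 library 2, without control P10 library 2 and without nuclei with over 3% of UMIs from the cardiomyocyte list. In control P10, Klf12 averaged 319.8 ± 90.3 plain CPM in endocardial and 184 ± 57.4 in capillary nuclei, and Palm 254 ± 85.1 and 81.8 ± 21.7 (SD, n = 3 each).

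A pair of genes of secreted growth regulators fell in endocardial nuclei. Inhba (chromosome 13, 16011851 to 16031621), the activin A subunit of the TGF-beta family, had 13.1, 35.1 and 21.8 CPM in KO P10 libraries 1 to 3, against 104, 215 and 263 CPM in control P10 libraries 1 to 3 (log2 −2.84 ± 0.70, SE; adjusted p = 0.0392). Igfbp5 (chromosome 1, 72857932 to 72874884), a binding protein of insulin-like growth factors, had 432, 522 and 513 CPM in KO P10 libraries 1 to 3, against 686, 2993 and 1468 CPM in control P10 libraries 1 to 3 (log2 −1.85 ± 0.46, SE; adjusted p = 0.0392). The KO libraries were close to each other and all lower, whereas control P10 library 2 stood high for Igfbp5. Inhba had only 86 UMIs in the members of all 9 libraries. Both calls were lost in several alternatives, Igfbp5 in 10 of 23 and Inhba in 9 of 21. Each call was lost without KO P10 library 2 or 3 and without control P10 library 2 or 3. That of Igfbp5 was also lost without KO P10 library 1. No direction changed, which libraries without overlap favour, so this adds no support. Inhba was the 1 of 16 tested members of the BMP and TGF-beta list that was called. Igfbp5 was the 1 of 7 in the insulin and IGF list. Of all 1887 genes tested, 1.59% were called. Bmp6 was at log2 1.17 (edgeR adjusted p = 0.0951).

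Ion channel genes were among the others that fell. Kcnc2 (chromosome 10, 112271121 to 112467024), a voltage-gated potassium channel, had 26.2, 39.5 and 10.9 CPM in KO P10 libraries 1 to 3, against 149, 151 and 309 CPM in control P10 libraries 1 to 3 (log2 −2.73 ± 0.54, SE; adjusted p = 0.0102). Kcnq5, a potassium channel of the KCNQ family, had 78.5, 83.4 and 54.6 CPM in KO P10 libraries 1 to 3, against 418, 255 and 247 CPM in control P10 libraries 1 to 3 (log2 −2.05 ± 0.40, SE; adjusted p = 0.0102). The call of Kcnc2 was lost in 3 of 21 alternatives, among them without control P10 library 3, and that of Kcnq5 without KO P10 library 2. Neither gene's libraries overlapped, and Kcnc2 was higher in endocardial than in capillary nuclei of control P10 (210.2 ± 88.7 against 106 ± 47.4 plain CPM, SD, n = 3 each). Kcnq5 was highest in cardiomyocyte nuclei of control P10, as were Nckap5 (log2 −2.04) and the unnamed transcript C130080G10Rik (−2.36). Sobp (−1.60) was highest in fibroblast nuclei and Ccser1 (−1.77) in endocardial nuclei. The part of RNA from other cells in these falls was not tested.

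Cox7a1 (chromosome 7, 30184144 to 30186078) encodes the muscle form of a cytochrome c oxidase subunit. Of the 26 tested genes of the respiratory chain and TCA cycle list it was the 1 called, beside 1.59% of all 1887 genes tested. It had 13.1, 35.1 and 87.3 CPM in KO P10 libraries 1 to 3, against 164, 303 and 232 CPM in control P10 libraries 1 to 3 (log2 −2.45 ± 0.47, SE; adjusted p = 0.0102). All KO P10 libraries were below all control P10 libraries. The call was lost without KO P10 library 2, with a limit of 5% Malat1 and with at most 1 fibroblast UMI. Its plain CPM in control P10 was 242 in endocardial, 294 in capillary, 334 in fibroblast and 234 in cardiomyocyte nuclei, and 44.0 to 76.6 in the 4 classes of KO P10. Its KO effect was not shown to differ from that in capillary nuclei (log2 −0.29, edgeR adjusted p = 0.988). Its level was thus lower in every class of the KO, and the part of RNA from other cells in this call was not tested. The median of the 26 genes was log2 −0.38, beside 0.00 over all genes tested. The 6 tested fatty acid oxidation genes had 0 calls, beside 1.59% of all 1887 genes tested, and a median of −0.14. The coactivator Ppargc1a was at log2 0.95 (adjusted p = 0.430), and the fatty acid receptor Ppara at −2.30 (0.101), neither past the threshold.

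Most lists of endocardial function held no call between KO P10 and control P10. The 10 tested endocardial genes outside the rule had 0 calls and a median of log2 0.24; Emcn was at 1125, 1422 and 1680.3 CPM in KO P10, against 850.1, 1107 and 1113 CPM in control P10 (log2 0.43 ± 0.37, SE; adjusted p = 0.762). The 5 tested Notch genes had 0 calls (median −0.56), with the receptor Notch1 at log2 0.36. The 20 tested basement membrane and matrix genes had 0 calls (median 0.16), as had the 13 pan-endothelial genes (−0.26), the 11 flow and mechanosensing genes (−0.40) and the 18 cardiomyocyte genes (0.31). With 1.59% of all 1887 tested genes called, lists this short would often hold no call. A list without calls is not shown to be unchanged, since the summed counts also limit what the test can detect.

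**Figure D4:**
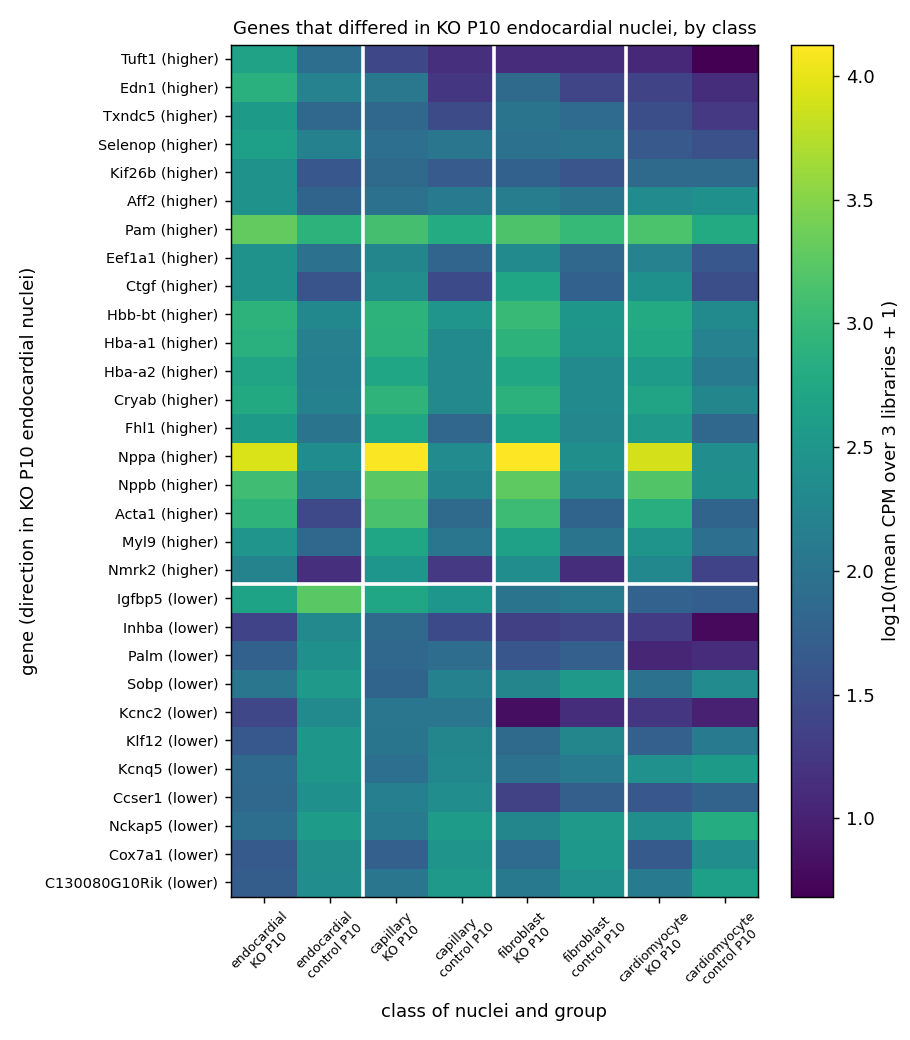
Mean level (log scale of plain CPM, colour) of the 30 genes called between KO P10 and control P10, in rows, in KO P10 and control P10 nuclei of 4 classes, in columns. Edn1, Tuft1 and Txndc5 are highest in the endocardial KO P10 column, whereas Nppa and Acta1 are high in every KO P10 column, Nppa at 8130.0 to 13379 CPM.

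The KO effect itself was then set against that in capillary nuclei of the same libraries, in a fit over 18 sums, 1 per class and library, blocked by library. Of 2891 tested genes outside the rule, 1 had a higher KO effect in endocardial nuclei (0.0346%) and 2 had a lower one (0.0692%), 3 in all (0.104%); 181 of all 2909 genes had an unadjusted p under 0.05. CPM values of this fit are scaled over the 18 sums and so differ from those above. Igfbp5 had 602, 711 and 716 CPM in endocardial nuclei of KO P10, against 1017, 4255 and 2040.2 in control P10, and 474, 637 and 979.9 CPM in capillary nuclei of KO P10, against 562, 405 and 279.6 in control P10 (log2 −2.58 ± 0.46, SE; adjusted p = 0.00536). Inhba had 18.3, 47.8 and 30.4 CPM in endocardial nuclei of KO P10, against 155, 306 and 365 in control P10, and 47.4, 110.3 and 153 CPM in capillary nuclei of KO P10, against 80.3, 10.8 and 21.2 in control P10 (log2 −5.02 ± 0.94, SE; adjusted p = 0.00721). Both genes were thus lower in the KO in endocardial nuclei and, on average, higher in capillary nuclei, where the libraries overlapped. Inhba had only 86 UMIs over the endocardial and 32 UMIs over the capillary sums of all 9 libraries, so its values rest on few molecules. Nrp1 (chromosome 8, 128358604 to 128503363), a co-receptor for VEGF and semaphorins, had 2045, 2180.1 and 3014 CPM in endocardial nuclei of KO P10, against 1526, 1629 and 1203 in control P10, and 640.0, 662 and 1164 CPM in capillary nuclei of KO P10, against 1566, 1449 and 1504 in control P10 (log2 1.64 ± 0.35, SE; adjusted p = 0.0301). In endocardial nuclei alone its KO difference was log2 0.74 (adjusted p = 0.430), which did not pass. Without KO P10 library 2, control P10 library 2 or control P10 library 3, 0 genes passed this edgeR test (118, 142 and 132 had an unadjusted p under 0.05), DESeq2 called 2, and leaving out another library gave 2 to 12. The call of Inhba was also lost without KO P10 library 3, that of Igfbp5 by DESeq2, and that of Nrp1 without KO P10 library 1 or 3 and without nuclei over the cardiomyocyte list limit. The KO effects on Edn1 (log2 −0.41, adjusted p = 0.974), Klf12 (−1.87, 0.330) and Nppa (−0.71, 0.929) were not shown to differ between the classes.

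Between control P10 and control P6, which asks how endocardial nuclei change as the heart matures, 15 of 1887 genes outside the rule rose (0.795%) and 35 fell (1.85%), or 50 in either direction (2.65%; edgeR quasi-likelihood test). Of the 50, 46 had libraries that did not overlap, which the call itself favours and whose share over all 1887 genes was not counted. Of the 1887 genes, 357 had an unadjusted p under 0.05. Those that fell with age included Edn1, the fatty acid binding protein Fabp5, Id2 and Id3 and ribosomal protein genes; those that rose included Tmtc2, Rora and Itgbl1. The count moved with single libraries: it was 22, 111 and 0 without control P10 library 1, 2 or 3 and 98, 19 and 3 without control P6 library 1, 2 or 3 (292 genes had an unadjusted p under 0.05 where none was called), and 82 without KO P10 library 1. With at most 1 fibroblast UMI per nucleus 6 genes were called, and with at least 1 UMI of Npr3, Vwf or Plvap 105. Xist RNA was high in each control P6 library but in only 1 of 3 control P10 libraries, and with a term for sex-linked RNA 66 genes were called, of which 34 were among the 50. The calls lost with that term were those of Itgbl1, Igfbp7, Stard13, Shank3, Id2, Rps18, Frmd5, Gas5, Eif1, Myl6, Hnrnph1, Maged2, Rpl23, Rpl37a, Mest and Tuba1b. Mitochondrial RNA, which the counts leave out, made up 9.71% to 28.5% of all UMIs of the members in control P10 and 0.917% to 1.87% in control P6. Its part in the age calls was not tested.

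Of the 35 genes that fell, 20 had their highest control P6 mean in endocardial nuclei. This ranking uses the group in which they were called high, which favours it. The share among all genes tested was not counted. Fabp5 (chromosome 3, 10012548 to 10016607), a carrier of fatty acids, had 119, 295 and 294 CPM in control P10 libraries 1 to 3, against 955, 1182 and 1947 CPM in control P6 libraries 1 to 3 (log2 −2.59 ± 0.45, SE; adjusted p = 0.00631). Edn1 had 164, 223 and 77.3 CPM in control P10 libraries 1 to 3, against 344, 1111 and 1492 CPM in control P6 libraries 1 to 3 (log2 −2.71 ± 0.50, SE; adjusted p = 0.0100). The calls of Fabp5, Edn1, Tmtc2, Itgbl1 and Igfbp7 were kept in 22, 21, 20, 18 and 15 of 23 alternatives. Each of these calls was lost without control P10 library 3. The alternatives also leave out KO P10 libraries, which share the fit but not this comparison. Fabp5 and Edn1 were lower in every control P10 library, although Edn1 in control P6 library 1 was well under the other P6 libraries. In KO P10 Edn1 lay at 484, 711 and 1091 CPM, within the range of the control P6 libraries; both comparisons use the same control P10 libraries. In plain CPM at control P6, Edn1 averaged 969 ± 605 in endocardial and 101 ± 113 in capillary nuclei, and Fabp5 1337 ± 573 and 537 ± 224 (SD, n = 3 each). Tuft1, which rose in the KO, had 104, 87.6 and 46.4 CPM in control P10 libraries 1 to 3, against 76.4, 356 and 632 CPM in control P6 libraries 1 to 3, with overlap (log2 −2.27 ± 0.53, SE; adjusted p = 0.0251).

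The lysosomal protease Ctsl had 134, 295 and 278 CPM in control P10 libraries 1 to 3, against 535, 968 and 1163 CPM in control P6 libraries 1 to 3 (log2 −1.99 ± 0.39, SE; adjusted p = 0.0109). The stress-induced kinase Plk2 had 74.6, 215 and 139 CPM in control P10 libraries 1 to 3, against 344, 612 and 936 CPM in control P6 libraries 1 to 3 (log2 −2.17 ± 0.44, SE; adjusted p = 0.0188). The condensin subunit Smc4 had 626, 502 and 525 CPM in control P10 libraries 1 to 3, against 2101, 1210.5 and 1972 CPM in control P6 libraries 1 to 3 (log2 −1.73 ± 0.36, SE; adjusted p = 0.0205). All 3 were lower in each control P10 library, with their highest P6 means in endocardial nuclei. Id2 and Id3, transcriptional inhibitors that BMP signals induce, were the 2 of 16 tested genes of the BMP and TGF-beta list that fell. Of all 1887 genes tested, 1.85% fell. Id2 (chromosome 12, 25093799 to 25097140) had 194, 167 and 124 CPM in control P10 libraries 1 to 3, against 229, 513 and 986 CPM in control P6 libraries 1 to 3 (log2 −1.94 ± 0.44, SE; adjusted p = 0.0227), and Id3 104, 223 and 155 CPM in control P10 libraries 1 to 3, against 497, 328 and 607 CPM in control P6 libraries 1 to 3 (log2 −1.54 ± 0.39, SE; adjusted p = 0.0359). Their libraries did not overlap, with Id2 in control P6 library 1 close above the control P10 range. Bace2 (log2 −1.58), Sost (−2.74), the scavenger receptor Stab1 (−1.85) and the matrix genes Fbln2 (−1.50), Emilin1 (−1.99) and Mfap2 (−2.14) also fell, Sost and Mfap2 with overlapping libraries. Of the 9 tested fetal and imprinted genes only Mest, an imprinted hydrolase gene, fell (−1.93, with overlap), and H19 was at log2 −1.45 (adjusted p = 0.0753).

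Another set of falls was shared with the other classes in level. Tnni1, the troponin I of the fetal heart, had 89.5, 55.7 and 61.8 CPM in control P10 libraries 1 to 3, against 420.2, 356 and 354 CPM in control P6 libraries 1 to 3 in endocardial nuclei (log2 −2.52 ± 0.43, SE; adjusted p = 0.00631), but its P6 mean was highest in cardiomyocyte nuclei (605 against 365 plain CPM in endocardial nuclei), as was that of Frmd5. Its part from stray muscle RNA was not tested. Rps18 (log2 −2.81), Rps15 (−1.88), Eef1a1 (−1.89), Eif1 (−1.96) and the snoRNA host Gas5 (−1.85) also fell and, except for Rps18, averaged higher in capillary than in endocardial nuclei at P6. Ribosomal protein RNA made up 0.570% to 1.18% of the members' UMIs in control P10 and 1.40% to 2.31% in control P6. Many of these genes have near-identical pseudogene copies, so their counts are uncertain. Myl6, B2m, Cox8a, Usmg5, Hnrnph1, Maged2, Tuba1b, the gene model Gm12338 and the ribosomal protein genes Rpl23, Rpl37a, Rplp0, Rps3a1 and Rps9 made up the rest of the 35.

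**Figure D5:**
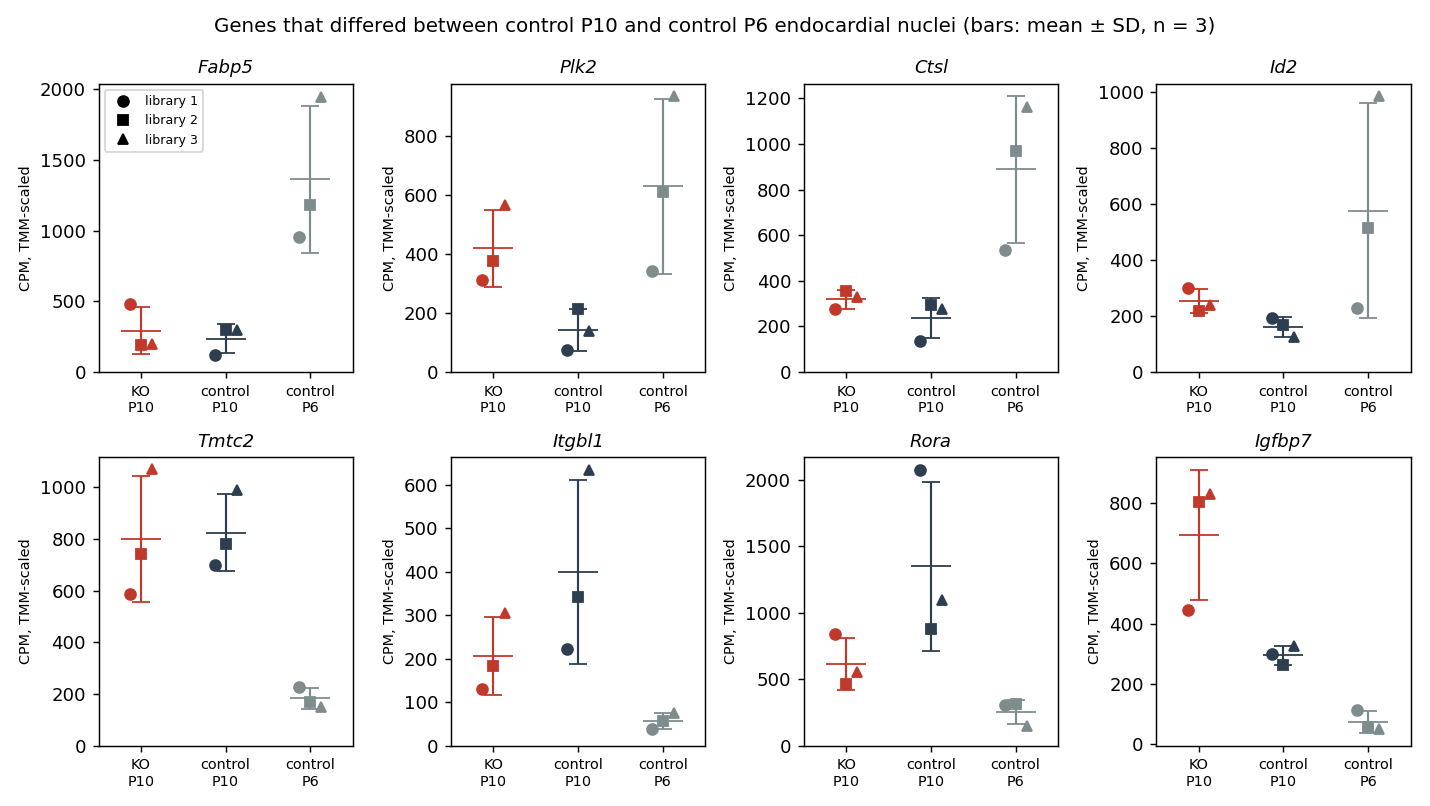
Level of 8 genes in endocardial nuclei (TMM-scaled CPM, linear axis) in each KO P10, control P10 and control P6 library, with points for libraries and bars for group means. Fabp5, Plk2, Ctsl and Id2 are lower in all control P10 libraries than in any control P6 library, and Tmtc2, Itgbl1, Rora and Igfbp7 are higher, Igfbp7 at 263 to 325 against 50.6 to 115 CPM.

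Of the 15 genes that rose with age, 5 were highest in endocardial nuclei of control P10. Again the ranking uses the group in which they were called high, and the share among all genes tested was not counted. Tmtc2 (chromosome 10, 105187663 to 105574451), a mannosyltransferase gene of the endoplasmic reticulum, had 701, 780.2 and 989 CPM in control P10 libraries 1 to 3, against 229, 171 and 152 CPM in control P6 libraries 1 to 3 (log2 2.12 ± 0.40, SE; adjusted p = 0.0109). Itgbl1 (chromosome 14, 123659971 to 123975618), a secreted integrin-like protein gene, had 224, 342 and 634 CPM in control P10 libraries 1 to 3, against 38.2, 57.0 and 75.9 CPM in control P6 libraries 1 to 3 (log2 2.64 ± 0.56, SE; adjusted p = 0.0205). Their libraries did not overlap. In plain CPM of control P10, Tmtc2 averaged 856 ± 129 in endocardial and 353 ± 75.6 in capillary nuclei, and Itgbl1 413 ± 206 and 51.3 ± 6.78 (SD, n = 3 each). Stard13 (log2 2.20), Setbp1 (1.61) and Stxbp6 (1.77) were the others highest in endocardial nuclei.

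The nuclear receptor gene Rora had 2073, 876 and 1097 CPM in control P10 libraries 1 to 3, against 306, 313 and 152 CPM in control P6 libraries 1 to 3 (log2 2.30 ± 0.44, SE; adjusted p = 0.0109), with control P10 library 1 high and no overlap. It was highest in fibroblast nuclei of control P10, as were the transcription factor Ebf1 (log2 1.45), the glypican Gpc6 (2.01), lipoprotein lipase (Lpl, 1.84) and Igfbp7. Magi2 (1.76), Fgf14 (2.26) and the muscarinic receptor Chrm2 (1.74) were highest in cardiomyocyte nuclei, and the adhesion gene Cdh13 (1.55) and the scaffold gene Shank3 (2.17) in capillary nuclei. In the lipid list Lpl rose and Fabp5 fell, of 7 tested. The 10 endocardial genes outside the rule and the 5 Notch genes had 0 calls with age, beside 2.65% of all 1887 genes tested. The summed fibroblast list stood at 3817 to 4970 CPM in control P10 and 3682 to 6932 in control P6, and the cardiomyocyte list at 30092 to 39696 and 15333 to 32241. The pericyte and smooth muscle list was higher without overlap, at 479 to 1032 CPM in control P10 and 180.4 to 383 in control P6, and so was the macrophage and lymphocyte list, at 174.8 to 234 and 25.8 to 107 CPM. All 9 and all 10 of their genes had UMIs, and their part in the age calls was not tested.

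A single gene outside the rule, of 2891 tested, had an age effect that differed from that in capillary nuclei (0.0346% higher and 0% lower; 265 of all 2909 with an unadjusted p under 0.05). Igfbp7 (chromosome 5, 77349240 to 77408041), a secreted vascular binding protein gene, had 442, 373 and 451 CPM in endocardial nuclei of control P10, against 157, 82.0 and 75.4 in control P6. In capillary nuclei it had 462, 757 and 792 CPM in control P10, against 965, 1041 and 1051 in control P6. It was thus higher with age in endocardial nuclei and lower in capillary nuclei, without overlap in either (log2 2.68 ± 0.52, SE; adjusted p = 0.0274). The call was lost by DESeq2, with at least 4 marker UMIs, without nuclei over the cardiomyocyte list limit and without control P10 library 1, 2 or 3 or control P6 library 2; without control P6 library 3, 45 genes passed, and without the highest doublet scores 42.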

How the data were processed

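The authors deposited UMI counts per gene and nucleus barcode, exonic and intronic reads combined (Drop-seq), per the file headers and labels; STAR 2.5.2a and mm10 are named in the submitters' processing notes, and the counting strand is not given in the sources used here. Nuclei were kept with at least 500 UMIs outside mitochondrial genes and at least 1.5% Malat1; barcodes shared between 2 KO libraries were left out, and doublets were not removed except in an alternative (scanpy 1.11.5 scores). Counts were summed per library over endocardial nuclei and tested with edgeR 4.0.16 (TMM, filterByExpr, quasi-likelihood, 9 libraries in 1 fit, Benjamini-Hochberg); DESeq2 1.42.0 was an alternative. The fits were also run on simulated data, with an outcome that is not reported here. Shares were tested by exact permutation over libraries. Genes were named by a rule: among genes past the threshold without overlap, the 12 with the smallest p in each direction, without predicted gene models, besides members of the gene lists; other called genes were named after their values were seen. The members and lists were chosen with earlier results of these data known. Same-numbered libraries did not deviate together, so no block was used. Coordinates are from GRCm38.p6.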

Additional observations from a re-analysis of the deposited data

Results flagged for a closer look

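For 3 genes the effect of the KO differed between endocardial and capillary nuclei in a test of the difference itself (edgeR quasi-likelihood interaction over class sums). The difference of effects was log2 −2.58 for Igfbp5 (adjusted p = 0.00536) and −5.02 for Inhba (0.00721), lower in the KO in all 3 endocardial sums than in those of control P10 for both genes. For Nrp1 it was 1.64 (adjusted p = 0.0301), with all 3 KO P10 endocardial sums higher and all 3 KO P10 capillary sums lower than those of control P10. The effect of age differed between the classes for Igfbp7, by log2 2.68 (adjusted p = 0.0274), with control P10 above control P6 in endocardial and below it in capillary nuclei in every library. All 4 differences kept their direction in each alternative, which their choice as called genes favours. The calls of Igfbp5, Inhba, Nrp1 and Igfbp7 were lost in 4, 4, 6 and 7 of 14 alternatives. The values of Inhba rest on few molecules, 86 UMIs over the endocardial and 32 UMIs over the capillary sums of all 9 libraries.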

How the results depend on the processing

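The endocardial share of nuclei kept its direction in every alternative. With 1 library left out, the KO P10 difference was 1.26 to 4.21 points and the control P10 against control P6 difference 0.605 to 1.75 points. With at least 5% Malat1 the KO P10 difference was smallest, at 0.353 points (exact permutation p = 0.8). No alternative could pass 0.05 in the exact permutation test, since 3 against 3 libraries cannot go below 0.1. The KO P10 and control P10 shares did not overlap with at least 4 marker UMIs, without the highest doublet scores and among nuclei with an Npr3, Vwf or Plvap UMI. The last of these was chosen after seeing the data. The shares overlapped with at least 5% Malat1, with at least 700 UMIs and with members chosen without Nrg1. They also did with the shared barcodes and with a marker sum of at least 2 times the capillary sum. The count of genes called between KO P10 and control P10, 30, was 7 with at least 5% Malat1, 13 with at least 700 UMIs, 8 with at most 1 fibroblast UMI, 10 with a marker sum of at least 2 times the capillary sum, 80 with no filter on low counts, 17 with members chosen without Nrg1, 13 without nuclei over 3% cardiomyocyte list UMIs, and 6 to 56 with 1 library left out. The count between control P10 and control P6, 50, was 13, 30, 6 and 24 under the first 4 of these settings, 80 with at least 4 marker UMIs, 105 among nuclei with an Npr3, Vwf or Plvap UMI (a setting chosen after seeing the data), and 0 to 111 with 1 library left out. The 3 genes with a different KO effect from capillary nuclei became 6 with at least 4 marker UMIs, 11 with no filter, 7 without the highest doublet scores and 0 to 12 with 1 library left out. The 1 gene with a different age effect became 0 by DESeq2 (127 with an unadjusted p under 0.05), 0 with at least 4 marker UMIs (180), 0 without nuclei over the cardiomyocyte limit (65), 3 with no filter, 42 without the highest doublet scores and 0 to 45 with 1 library left out; the causes were not tested. For named genes, 0 of the values under alternatives reversed. Genes were named only once called, and in the KO and age comparisons only without overlap, which favours a kept direction. This count therefore adds no support. Replicate numbers did not pair the libraries: correlations of same-numbered deviations were 0.165, −0.102 and 0.0746 between KO P10 and control P10 and 0.161, −0.0676 and 0.0104 between control P10 and control P6, library 1 being the only number that matched best in both. With the replicate number as a block 36 and 58 genes were called. The smallest summed depth, 27977 UMIs in control P6 library 1, limits what can be detected of low genes.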
